A study of Mus musculus with 13 samples.

Results

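Binding of 2 V5-tagged constructs of Fezf2, named Fezf2-A and Fezf2-E, was compared through the peak lists deposited for each, 18216 peaks for Fezf2-A and 21338 for Fezf2-E. All 39554 peaks of both lists were members. Peaks were paired wherever a Fezf2-A and a Fezf2-E peak shared at least 1 bp, which gave 11497 pairs. The series holds 13 libraries, of which 3 are ChIP-seq, and the remainder, RNA sequencing of mouse neocortex, were not analysed here. All 3 ChIP-seq libraries came from Neuroblastoma 2A (N2A) cells, an established mouse neuroblastoma line, fixed 48 h after transfection, and the pulldown used an antibody to the V5 epitope tag. The groups were cells given CAG-Fezf2-A-V5, cells given CAG-Fezf2-E-V5, and cells given CAG-V5, labelled V5-Control. The control is named as an input in its description and in the header of the Fezf2-E list, so whether it was itself precipitated is not clear from the sources used here. The first 2 carry the same genotype label, Fezf2-V5 over-expression, and the sources used here do not say what sets construct A apart from construct E. Each construct was read in 1 library, so no test between constructs was possible, and every value below describes a pair of libraries. Expression came from a plasmid with the CAG promoter, a strong synthetic promoter that is active in most cell types, so binding was measured with a transfected protein and not with Fezf2 at its native level. The labelled cell type could not be checked against marker genes, since no RNA was measured in these cells.

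Fezf2 is a transcription factor with C2H2 zinc fingers, which contact DNA, and an engrailed homology motif near its amino terminus, through which it recruits corepressors of the Groucho (TLE) family. In the cortex it is best known for directing the identity of subcerebral projection neurons of layer 5, and it is also made by neural progenitors. In ChIP-seq, DNA fragments that are crosslinked to the tagged protein are recovered and sequenced, and a peak caller marks the places where fragments pile up above a background taken from a control library. Each peak then has a width, a summit (the base with most fragments), a pileup (the number of fragments over the summit) and a fold enrichment (the pileup divided by the local background). These are the values of the authors' peak caller for each peak. Positions are in the mm9 build named in the submitters' processing notes. Both lists run past the last gene of the later GRCm38 assembly on chromosome 7, at 145324059, with 87 Fezf2-A and 85 Fezf2-E peaks beyond it. An annotation or sequence of mm9 was not used here, so peaks are given by position, without gene names or bases.

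The question addressed by the comparison was where the constructs bound in common and where they differed. Most strong binding places were common to both, and the weaker peaks were shared less often. Of the Fezf2-A peaks, 11139 (61.1%, exact Clopper-Pearson 95% interval 60.4% to 61.9%) overlapped a Fezf2-E peak, and 7077 did not. Of the Fezf2-E peaks, 11315 (53.0%, interval 52.4% to 53.7%) overlapped a Fezf2-A peak, and 10023 did not. The lists differ in length. When the strongest 18216 peaks of each were compared, the shares were 55.6% for Fezf2-A and 56.2% for Fezf2-E. Both shares then count the same pairs over the same number of peaks, so they had to lie close together. The shares of the whole lists therefore do not rank the constructs. These intervals and those below cover counting error only, since sequenced fragments are not independent molecules. They also take each peak as independent of its neighbours, which was not tested. The lack of a partner says only that no peak passed the caller's limit in the other library.

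Sharing rose with the strength of the peak in both lists. All of the 100 Fezf2-A peaks with the highest −log10 p overlapped a Fezf2-E peak, as did 96.4% of the strongest 1000 and 85.3% of the strongest 5000. For Fezf2-E the shares were 100%, 94.8% and 79.9%. Among the weakest 1000 peaks of each list, 36.3% of Fezf2-A and 32.4% of Fezf2-E peaks had a partner. At a fold enrichment of at least 10, 2962 of 3675 Fezf2-A peaks (80.6%, interval 79.3% to 81.9%) and 1879 of 2355 Fezf2-E peaks (79.8%, 78.1% to 81.4%) were shared. This limit is not the same level in both lists, since the lowest background was 1.40 fragments for Fezf2-A and 1.67 for Fezf2-E. Among the strongest 5000 of each list the intervals did not overlap (84.3% to 86.3% and 78.8% to 81.0%). There, the longer Fezf2-E list offered more possible partners to the Fezf2-A peaks. At 15 or more, 489 of 518 Fezf2-A and 214 of 223 Fezf2-E peaks were shared.

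Width and pileup both separated shared from unshared peaks more evenly than fold enrichment did. Each list was divided into 10 equal bins. Over the lowest 7 bins of fold enrichment the share of Fezf2-A peaks with a partner moved from 49.0% to 58.2%, and it reached 88.7% in the highest bin. Ranked by width, it climbed from 34.0% in the narrowest bin to 91.3% in the widest. Fezf2-E peaks showed the same course, from 43.9% to 49.5% over 7 bins of fold enrichment and 80.4% in the highest, and from 26.5% to 88.4% over the bins of width. Ranked by pileup, the share ran from 33.9% to 92.9% for Fezf2-A and from 29.6% to 88.3% for Fezf2-E. A wider peak also has more bases with which to meet the rule of 1 bp.

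**Figure D1:**
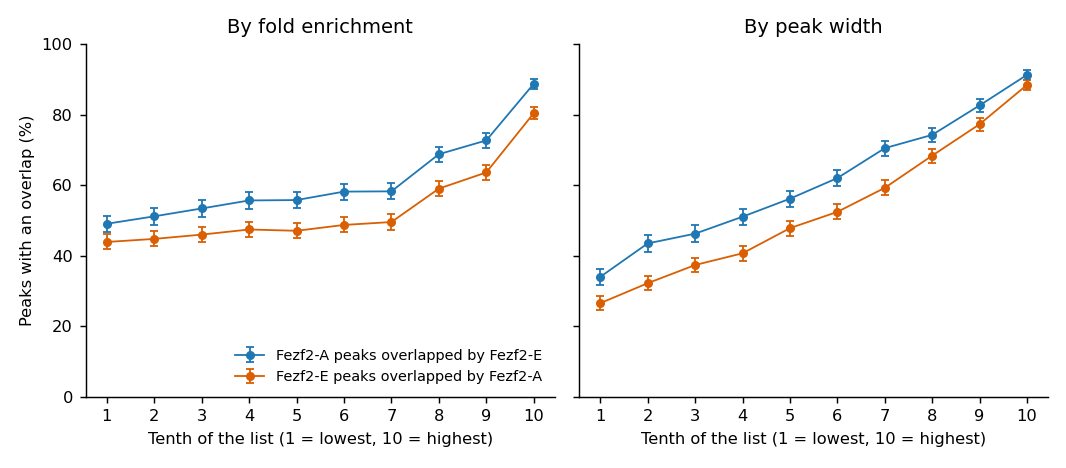
Share of peaks that overlap a peak of the other list by at least 1 bp (vertical axis, %), for 10 equal bins of a list ranked by fold enrichment (left) or width (right). Blue points are Fezf2-A peaks and orange points Fezf2-E peaks, with exact 95% intervals for counting error. Fezf2-A runs from 49.0% to 88.7% by fold enrichment and from 34.0% to 91.3% by width, and Fezf2-E lies below it in every bin.

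Peaks with a partner were stronger, higher and wider than those without. In the Fezf2-A list the median fold enrichment was 7.93 for peaks with a partner and 7.02 for those without, the median pileup 18 and 15 fragments, and the median width 325 and 235 bp. In the Fezf2-E list the medians were 7.13 and 6.33 for fold enrichment, 20 and 16 fragments for pileup, and 278 and 196 bp for width. The ranges overlapped widely: the middle 90% of fold enrichments spanned 4.49 to 14.6 with a partner and 4.10 to 10.7 without in Fezf2-A, and 3.91 to 12.8 against 3.63 to 9.83 in Fezf2-E. Where the summit lay within the peak did not set them apart, at a median of 48.8% of the peak's length with a partner and 48.6% without in Fezf2-A, and 48.6% and 48.2% in Fezf2-E.

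Pairing was mostly one to one. Of the paired Fezf2-A peaks, 10791 had 1 partner, 338 had 2 and 10 had 3. Of the paired Fezf2-E peaks, 11135 had 1 partner, 178 had 2 and 2 had 3. The more frequent case was thus a single Fezf2-A peak that covered several Fezf2-E peaks. Overlap was deep, with a median of 98.2% of the shorter peak (quartiles 84.5% and 100%), or 220 bp, and 10800 pairs (93.9%) shared at least 50% of the shorter peak. A Fezf2-E peak lay wholly inside the Fezf2-A peak in 3489 pairs (30.3%), and a Fezf2-A peak inside the Fezf2-E peak in 1753 (15.2%).

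The pair with the highest fold enrichment in both lists lay on chromosome 5. The Fezf2-A peak at chr5:123220850-123221506 had 83 fragments at its summit and a fold enrichment of 55.7, and the Fezf2-E peak at chr5:123220828-123221376 had 83 fragments and 46.6. Their summits were 22 bp apart. On chromosome 13, chr13:52113229-52113714 had 75 fragments and a fold enrichment of 31.0 with Fezf2-A, and chr13:52113201-52113667 had 76 fragments and 28.3 with Fezf2-E, with summits 12 bp apart. At both places the pileups of the libraries were nearly equal while the fold enrichment was higher with Fezf2-A.

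The next 3 pairs by the lower of their fold enrichments lay on chromosomes 7, 4 and 2. At chr7:148111746-148112238 Fezf2-A had 46 fragments and a fold enrichment of 32.9, and Fezf2-E had 45 and 27.0 at chr7:148111815-148112225. At chr4:115820895-115821385 Fezf2-A had 68 fragments and 30.4, against 65 and 25.6 at chr4:115820936-115821383 for Fezf2-E. The pair on chromosome 2 was the 1 of these 5 that was higher with Fezf2-E: 34 fragments and 24.4 for Fezf2-A at chr2:77887280-77887914, and 43 fragments and 25.8 for Fezf2-E at chr2:77887329-77887937. Summit distances in these 3 pairs were 25, 35 and 8 bp, so that all 5 of the strongest pairs had summits at most 35 bp apart.

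Over all 11497 pairs, fold enrichment was lower with Fezf2-E, with a median log2 ratio of Fezf2-E to Fezf2-A of −0.18. The median fold enrichment was 7.95 in the Fezf2-A peaks and 7.15 in their Fezf2-E partners, a median ratio of Fezf2-A to Fezf2-E of 1.13, and Fezf2-A was higher in 7353 pairs (64.0%), Fezf2-E in 4132 (35.9%) and neither in 12. The spread among pairs was larger than this shift, with a standard deviation of 0.53 and 5th and 95th percentiles of −1.06 and 0.68 on the log2 scale. Pileup went the other way. The median pileup was 19 fragments with Fezf2-A and 20 with Fezf2-E, a median log2 ratio of Fezf2-E to Fezf2-A of 0.09 (standard deviation 0.40), and Fezf2-E was higher in 6307 pairs (54.9%).

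The opposite directions of pileup and fold enrichment go with the background against which each library was read. Background, computed here as pileup divided by fold enrichment, had a median log2 ratio of Fezf2-E to Fezf2-A of 0.256 in the pairs. The lowest background in the lists was 1.40 fragments for Fezf2-A and 1.67 for Fezf2-E, also a log2 ratio of 0.256, and the median ratio lay between 0.255 and 0.256 on each of the 20 chromosomes. For Fezf2-E the lowest value equals the genome-wide expectation from its file header, 142 bp times 21959213 filtered tags over 1870000000 bp, which is 1.67. The fragment size and depth behind the Fezf2-A list are not stated in the sources used here. If its narrowest width, 176 bp, were its fragment size and the genome size were the same, its lowest background would correspond to about 14800000 tags. A difference in fold enrichment between constructs therefore cannot be told apart from a difference in depth and scaling between the libraries.

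**Figure D2:**
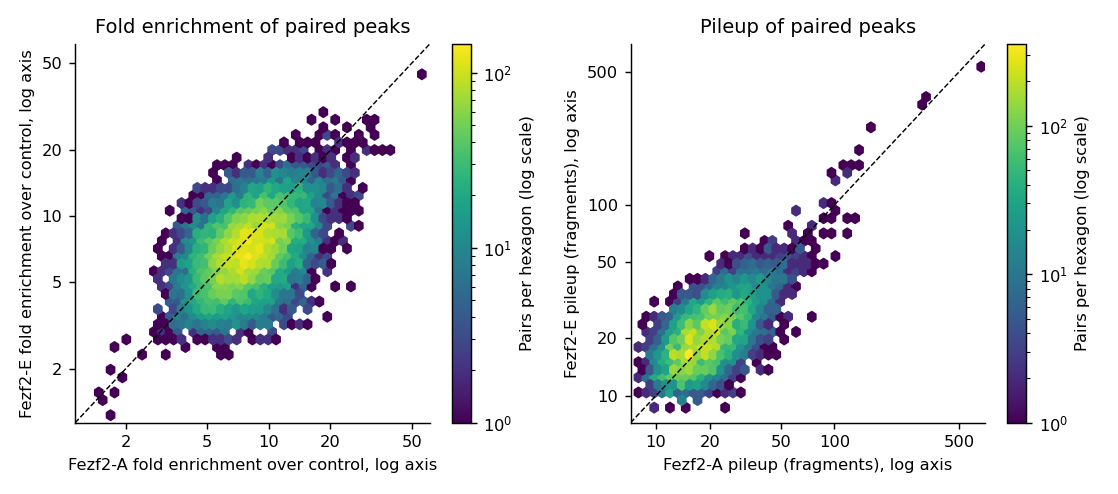
Fold enrichment (left) and pileup in fragments (right) of the 11497 pairs, Fezf2-A on the horizontal and Fezf2-E on the vertical axis, both log scaled. Hexagon colour is the number of pairs on a log scale and the dashed line marks equal values. The cloud of fold enrichments lies mostly below the line (7353 pairs higher with Fezf2-A) and that of pileups slightly above it (6307 pairs higher with Fezf2-E).

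Strength in one library told only part of the strength in the other. Across pairs, the Spearman correlation was 0.45 for fold enrichment, 0.59 for pileup and 0.34 for width. These are descriptions over pairs that share libraries and the control, among peaks that passed the caller's limit in both.

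Few pairs were strongly unequal. Fold enrichment was at least 1.5-fold higher with Fezf2-A in 2401 pairs (20.9%) and with Fezf2-E in 808 (7.03%), and within 1.5-fold in 72.1%. A difference of at least 2-fold was met in 722 pairs (6.28%) towards Fezf2-A and 153 (1.33%) towards Fezf2-E. These limits were not adjusted for the background, whose median log2 ratio of Fezf2-E to Fezf2-A was 0.256. The excess towards Fezf2-A therefore cannot be told apart from scaling. By pileup, 84.0% of pairs were within 1.5-fold, with Fezf2-E higher in 54.9% of all pairs and Fezf2-A in 37.7%. Whether strong pairs stood apart from this background depended on how they were chosen. When pairs were ranked by their mean log2 fold enrichment and divided into 5 equal sets, the top set (2300 pairs) held 20.8% that were 1.5-fold higher with Fezf2-A and 6.35% that were higher with Fezf2-E, and the lowest set held 22.1% and 7.18%. The median log2 ratio lay between −0.21 and −0.15 in all 5 sets, so the lower fold enrichment with Fezf2-E was present at every level of strength. Among the 1106 pairs in which both fold enrichments were at least 10, 9.22% were 1.5-fold higher with Fezf2-A and 2.08% with Fezf2-E, the median log2 ratio was −0.10 and the standard deviation 0.35. Asking for 10 in both lists leaves out pairs in which 1 of the peaks was weak, so these lower shares follow in part from the choice.

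Pairs whose summits lay more than 200 bp apart were more often unequal than the background, at 25.5% towards Fezf2-A and 10.8% towards Fezf2-E of 1523 pairs. Those with summits within 50 bp (4960 pairs) stood at 18.3% and 5.02%. The medians of these sets were close together, at −0.17 and −0.19 on the log2 scale, so it was the spread between pairs that differed (standard deviation 0.64 and 0.46) and not the central shift.

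The most unequal pairs were named among the 4660 in which both peaks reached the median fold enrichment of their own list. Towards Fezf2-A, chr2:146151050-146151380 had a fold enrichment of 24.6 and 42 fragments, against 7.10 and 13 fragments at chr2:146151105-146151348 with Fezf2-E, a ratio of 3.47. Next were chr11:62949196-62949648, with 23.7 and 48 fragments against 7.82 and 21, and chr1:185940308-185940758, with 22.7 and 55 fragments against 7.54 and 27. In all 3 the pileup itself was higher with Fezf2-A, at log2 ratios of Fezf2-E to Fezf2-A of −1.69, −1.19 and −1.03, and the summits were 67, 24 and 6 bp apart. These are single places in single libraries, picked from the extreme of many pairs.

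Towards Fezf2-E the extremes of fold enrichment were smaller, and the pairs were of another shape. Fold enrichment was not adjusted for the higher background of the Fezf2-E library (median log2 ratio 0.256 in the pairs). Over all pairs, the log2 ratio of pileup ran from −1.69 to 1.63, so by pileup the extremes were of similar size each way. At chr8:13709915-13710493 Fezf2-E had a fold enrichment of 17.7 and 36 fragments, against 7.93 and 24 at chr8:13710015-13710474 with Fezf2-A, a ratio of 2.23. The pairs at chr3:141127414-141128775 (16.5 against 7.55) and chr11:115884735-115885928 (17.0 against 7.79) were broad, at 1362 and 1194 bp in Fezf2-E and 1105 and 1085 bp in Fezf2-A. The summits of these 3 pairs lay 237, 625 and 675 bp apart, and the background at the Fezf2-A summit was 3.03, 4.24 and 4.24 fragments against 2.04, 2.30 and 2.47 at the Fezf2-E summit. In each of them, then, the libraries were compared at different bases of a wide bound region, and the log2 ratios of pileup were 0.58, 0.25 and 0.35.

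Summits of paired peaks were close together and offset in neither direction. The median distance was 61 bp (quartiles 28 and 125 bp), and 43.1% of pairs had summits within 50 bp, 68.1% within 100 bp and 86.8% within 200 bp. In 59 pairs both summits fell on the same base. The median signed offset, Fezf2-E minus Fezf2-A, was 0 bp and its mean 0.57 bp. Both summits lay inside the partner peak in 8691 pairs (75.6%), and neither did in 615 (5.35%).

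Distance between summits fell with strength and rose with width. The median distance was 67, 74, 68, 58 and 44 bp from the lowest to the highest of 5 sets by mean log2 fold enrichment, and 55.3% of the top set had summits within 50 bp, against 40.3% of the lowest. From the narrowest to the widest of 5 sets, ranked by the wider peak of the pair, the median was 45, 50, 61, 73 and 102 bp. Of the 222 pairs with summits more than 500 bp apart, 211 were in the widest set. A wide peak leaves more room for distant summits, so width sets an upper limit on the distance.

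**Figure D3:**
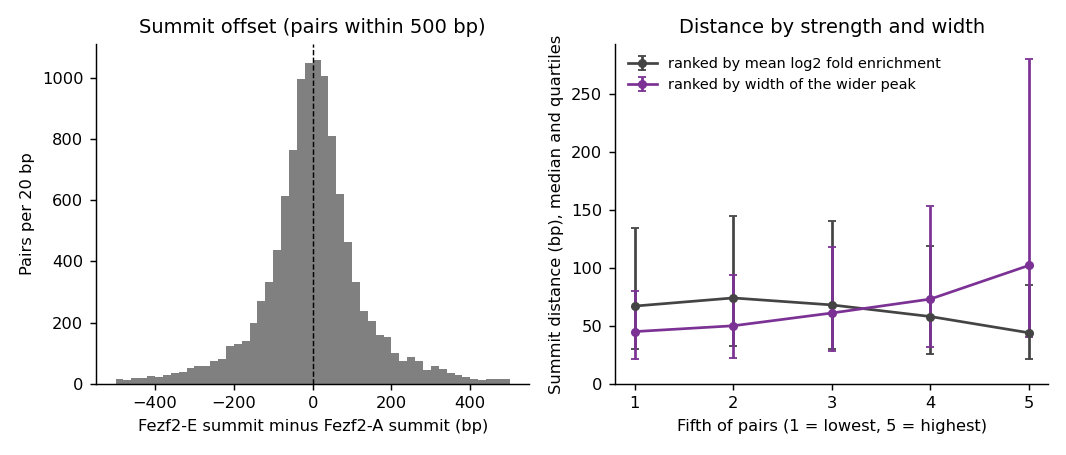
Left, number of pairs per 20 bp of signed summit offset (Fezf2-E minus Fezf2-A, bp) for pairs within 500 bp, with the dashed line at 0. Right, median and quartiles of summit distance (bp) for 5 equal sets of pairs, which falls to 44 bp in the set of highest mean log2 fold enrichment and rises to 102 bp in the widest set.

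The largest offsets joined peaks of unequal width. At chr13:111069407-111069961 the Fezf2-A summit lay at the second base of a peak of 24 fragments and fold enrichment 2.83, and the Fezf2-E peak at chr13:111069511-111071347, of 28 fragments and 7.36, had its summit 1707 bp away although the peaks overlapped by 451 bp. At chr6:85401198-85402737 a broad Fezf2-A peak of 21 fragments and 11.02 met a Fezf2-E peak of 17 fragments and 4.77 at chr6:85402663-85403017 over 75 bp, with summits 1637 bp apart. Such pairs count as shared by the overlap rule although their summits differ, and 13 pairs in all had summits more than 1000 bp apart.

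Fezf2-E peaks were narrower. The median width was 281 bp over the whole Fezf2-A list (quartiles 215 and 390 bp, widest 2069 bp) and 232 bp over the Fezf2-E list (quartiles 175 and 325 bp, widest 2303 bp). In the pairs the medians were 330 and 281 bp, a median log2 ratio of Fezf2-E to Fezf2-A of −0.20, and Fezf2-A was the wider in 7183 pairs (62.5%). The narrowest peaks were 176 bp for Fezf2-A (1449 peaks, 7.95%) and 142 bp for Fezf2-E (1665 peaks, 7.80%), a log2 ratio of −0.31. The latter is the fragment size in the Fezf2-E header, which the caller uses as its smallest peak width, so width and fragment size cannot be told apart between these lists.

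The strongest peaks without a partner were weaker than the strongest shared ones. In the Fezf2-A list chr8:52894874-52895161 had 37 fragments and a fold enrichment of 26.5, with the nearest Fezf2-E summit 101064 bp away. It was the 1 Fezf2-A peak of 114 at a fold enrichment of at least 20 that had no partner, and all 33 Fezf2-E peaks at that level had one. Next were chrX:11802900-11803201 at 19.3 and 27 fragments, and chr7:46773020-46773369 at 18.6 and 26 fragments, whose nearest Fezf2-E summit was 2114662 bp away. In the Fezf2-E list chr3:9558780-9559075 had 37 fragments and 19.0, chr9:82709044-82709335 had 32 and 17.97, and chr1:78215604-78215851 had 30 and 17.1. Their nearest Fezf2-A summits lay 14904, 151643 and 77262 bp away. The background was 1.40 fragments at all 3 Fezf2-A peaks, the lowest value of that list, and 1.95, 1.78 and 1.76 at the Fezf2-E peaks, against a lowest value of 1.67.

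A part of the peaks without a partner lay next to a peak of the other list. The nearest summit of the other construct was within 1000 bp for 1262 Fezf2-A peaks (17.8% of those without a partner) and 1726 Fezf2-E peaks (17.2%), and within 10000 bp for 45.3% and 46.4%. For the same peaks, a summit of their own list was within 1000 bp for 16.2% and 20.9%, and within 10000 bp for 44.0% and 52.7%. Closeness to the other list was thus of the order of the spacing within a list. In these counts the neighbouring summit of the other list could be of any strength. The nearest summit of the other construct was farther than 100000 bp for 10.3% of either. Strong peaks without a partner were more isolated: at a fold enrichment of at least 10, the nearest summit of the other list was within 1000 bp for 10.8% of 713 Fezf2-A and 12.8% of 476 Fezf2-E peaks, and farther than 100000 bp for 20.6% and 13.2%.

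Spacing within each list was spread widely. The median distance from a summit to the nearest summit of the same list was 11248.5 bp for Fezf2-A and 7635 bp for Fezf2-E. Yet 27.2% of Fezf2-A and 33.5% of Fezf2-E peaks had a neighbour within 2000 bp. The Fezf2-E list is also the longer. With the strongest 18216 peaks of Fezf2-E, the length of the Fezf2-A list, the median was 9770 bp and so still below that of Fezf2-A.

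**Figure D4:**
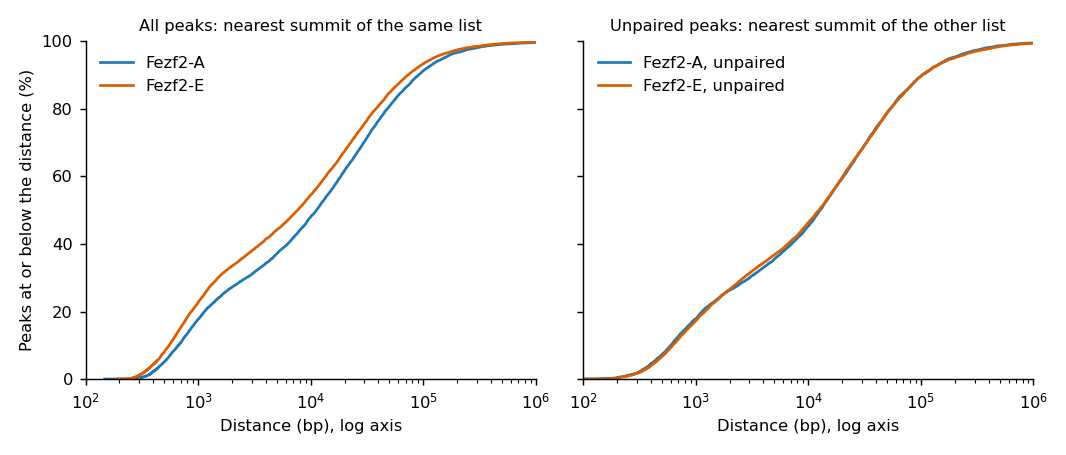
Cumulative share of peaks (%) against distance (bp, log axis). Left, distance to the nearest summit of the same list, with medians of 11248.5 bp for Fezf2-A and 7635 bp for Fezf2-E. Right, distance from peaks without a partner to the nearest summit of the other list, where 17.8% of Fezf2-A and 17.2% of Fezf2-E peaks lie within 1000 bp and the curves nearly coincide.

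Joined at gaps of at most 2000 bp, the Fezf2-A peaks formed 2174 clusters of 2 or more (4955 peaks) and the Fezf2-E peaks 2988 (7149 peaks). Peaks in clusters had a partner more often than solitary ones, at 65.9% (interval 64.5% to 67.2%) against 59.4% (58.5% to 60.2%) for Fezf2-A and 56.0% (54.9% to 57.2%) against 51.5% (50.7% to 52.3%) for Fezf2-E. Peaks of the same cluster entered these intervals as separate draws, so the intervals may be too narrow. Clusters of 5 or more numbered 32 for Fezf2-A and 89 for Fezf2-E. These numbers were not matched for list length, and the narrowest peak was 176 bp for Fezf2-A and 142 bp for Fezf2-E. The part of peak width in the spacing and the clusters was not tested. The span of all 32 Fezf2-A clusters held a Fezf2-E summit, and that of 87 of the 89 Fezf2-E clusters held a Fezf2-A summit. Over the whole lists 61.1% of Fezf2-A and 53.0% of Fezf2-E peaks had a partner. A span of 5 or more peaks would thus seldom hold none, and these counts do not set large clusters apart. Spans with at least 3 summits of the other list numbered 27 of 32 and 65 of 89.

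Some of the longest clusters were in both lists. On chromosome 8, 7 Fezf2-A peaks spanned chr8:129112979-129119227 and 9 Fezf2-E peaks spanned chr8:129113462-129120506. The largest Fezf2-A cluster, 9 peaks at chr5:143577200-143585270, held 5 Fezf2-E summits. The Fezf2-E clusters of 10 peaks at chr12:88228918-88238208 and chr11:109509829-109518334 held 5 and 3 Fezf2-A summits, with highest fold enrichments of 12.7 and 6.63. Groups of peaks that spanned several kilobases were thus seen with either construct, and their peaks only partly coincided. Whether such a group is a single bound region was not tested.

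At the scale of 1 Mb, peaks of both constructs gathered in the same places. Of 1988 bins of 1 Mb that held any peak, 1798 held peaks of both, 84 of Fezf2-A alone and 106 of Fezf2-E alone. Numbers per bin had a Spearman correlation of 0.90, and the numbers of peaks without a partner a Spearman correlation of 0.58. Both lists share mappability, base composition and gene density with the bins, so these are descriptions. The 199 densest bins of each list held 31.9% of Fezf2-A and 31.5% of Fezf2-E peaks, and 149 of them were the same for both. The densest bin of either list was that from 98000001 to 99000000 on chromosome 15, with 58 Fezf2-A and 63 Fezf2-E peaks.

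The share of peaks per chromosome differed between the lists. The intervals here treat peaks as independent, although 27.2% of Fezf2-A and 33.5% of Fezf2-E peaks had a neighbour within 2000 bp. They may thus be too narrow, and each construct has 1 library. All peaks lay on the 19 autosomes and X. The share of peaks had 95% intervals that did not overlap on 10 of 20 chromosomes, 5 with the higher share in Fezf2-A (4, 7, 14, 15 and X) and 5 with the higher share in Fezf2-E (1, 10, 12, 16 and 19). Chromosomes 16 and 19 had the highest ratios of Fezf2-E share to Fezf2-A share, at 1.21 each, with 533 Fezf2-A and 757 Fezf2-E peaks (2.93% and 3.55%) on 16 and 539 and 764 (2.96% and 3.58%) on 19. The lowest ratios were 0.70 on X, with 224 Fezf2-A and 183 Fezf2-E peaks (1.23% and 0.86%), and 0.76 on 14, with 545 and 486 (2.99% and 2.28%). The Fezf2-E list was longer as a whole, yet on the 5 chromosomes with the higher share in Fezf2-A it was also shorter in number of peaks.

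The pileup of paired peaks moved with these shares. The median log2 pileup ratio of Fezf2-E to Fezf2-A was −0.12 on X and −0.04 on 15, it was 0 on 4, 6, 7 and 14, and it was above 0 on the other 14 chromosomes, up to 0.17 on 8. Over the 20 chromosomes, the Spearman correlation between the share ratio and this pileup ratio was 0.80, a description in which both measures come from the same libraries. The median log2 background ratio stayed between 0.255 and 0.256. Fold enrichment of pairs was lower with Fezf2-E on all 20 chromosomes, with median log2 ratios from −0.35 on X to −0.08 on 10. Summit distances showed no such pattern, with chromosome medians between 53.5 and 68 bp. The part of the libraries' depth in these differences was not tested.

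**Figure D5:**
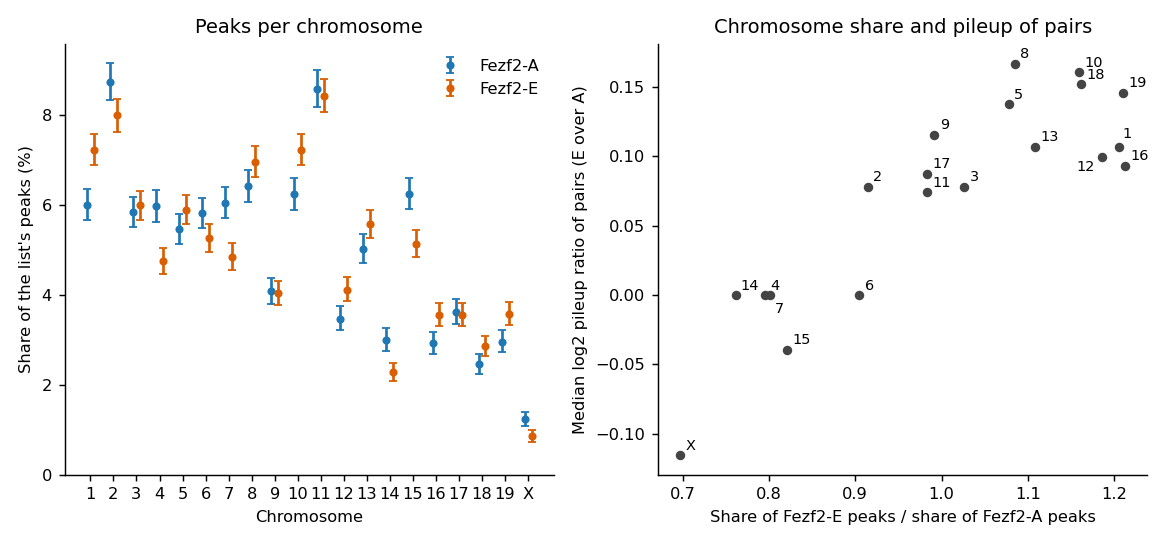
Left, share of each list's peaks per chromosome (%) with exact 95% intervals, Fezf2-A in blue and Fezf2-E in orange. Right, for each of the 20 chromosomes, the ratio of Fezf2-E share to Fezf2-A share against the median log2 pileup ratio of pairs. X is lowest on both axes of the right panel, at 0.70 and −0.12.

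Sharing varied between chromosomes as well. The share of Fezf2-A peaks with a partner ran from 47.3% on X and 48.4% on 14 to 68.6% on 8, and the share of Fezf2-E peaks with a partner from 46.1% on 16 to 64.8% on 15. The Spearman correlation between the share ratio and the share with a partner was 0.84 for Fezf2-A and −0.90 for Fezf2-E over the 20 chromosomes. Both measures count the same peaks, and most pairs are one to one. Where Fezf2-E peaks are relatively many, a smaller part of them can have a partner than of the Fezf2-A peaks. The opposite signs are therefore largely built into the measures. Within chromosomes the ratio varied too. Of 146 bins of 10 Mb with at least 50 peaks in each list, the ratio ran from 0.62 to 1.48, and the intervals did not overlap in 5, all with the higher share in Fezf2-A. Chromosome 3 held bins of low and of high ratio, both among the extremes of the 146. From 60000001 to 70000000 there were 118 Fezf2-A and 89 Fezf2-E peaks (ratio 0.64), with intervals that did not overlap. From 140000001 to 150000000 there were 59 and 101 (ratio 1.46), but there the intervals overlapped. The median log2 fold enrichment ratio of the pairs in these 2 bins was −0.42 and 0.00.

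Fezf2-A and Fezf2-E peaks had lower fold enrichment on chromosomes of higher background. The median background per chromosome ran from 1.40 on X to 2.88 on 8 for Fezf2-A and from 1.79 on X and 14 to 3.31 on 8 and 10 for Fezf2-E, with a Spearman correlation of 0.99 between the lists. The median fold enrichment ran against it, from 8.78 on X to 6.94 on 8 and 10 in Fezf2-A (Spearman correlation −0.96 over 20 chromosomes) and from 7.34 on 18 to 6.14 on 15 in Fezf2-E (Spearman correlation −0.94). Since background is a factor of fold enrichment by construction, levels of fold enrichment are not comparable between chromosomes.

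A few peaks stood on a high background, and those of the highest pileup had low fold enrichment. Background was above 10 fragments in 36 Fezf2-A and 55 Fezf2-E peaks, of which 21 and 34 overlapped the other list, and fold enrichment among them reached 6.65. The pair at chr9:35112774-35113163 had 636 fragments and a fold enrichment of 1.66 with Fezf2-A, and 544 and 1.26 with Fezf2-E at chr9:35112817-35113083. On chromosome 9 between 3000341 and 3036360 there were 10 such Fezf2-A and 8 such Fezf2-E peaks. The background at the first of these places was 383.1 fragments for Fezf2-A and 431.7 for Fezf2-E. Without them the share of peaks with a partner was 61.1% for Fezf2-A and 53.0% for Fezf2-E.

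The highest pileups of the Fezf2-A list were on chromosome 14 and had no counterpart among the Fezf2-E peaks. From 13174896 to 13177715 there were 3 Fezf2-A peaks, of 290 to 704 fragments and fold enrichments of 1.29 to 1.67, over a background of up to 426.7 fragments. No Fezf2-E peak of such background was called there. The control behind the Fezf2-A list was therefore also high at this place, and which library served as that control is known only from the sample descriptions and the header of the other list. Which gene lies there was not determined here, and whether reads of the transfected Fezf2 plasmid were counted at this place, in the ChIP or the control library, was not tested.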

How the data were processed

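V5 ChIP-seq of N2A cells was read from the authors' 2 deposited peak lists, 1 per construct and 1 library each. Libraries were sequenced as single reads of 75 bp, per the labels. The submitters' processing notes name Bowtie 0.12.5, MACS2 2.0.9 and mm9, without tying each tool to a step. The deposited pileup signal, the fold enrichment ratio and the −log10 p and q are the caller's values per the file headers. The Fezf2-E header gives 22510850 ChIP and 25001753 control tags, 0.01 as the largest q, 142 bp for the fragment and 105 bp for the tag. Its tag length is not the 75 bp of the labels, and the sources used here do not explain the difference. The Fezf2-E header also states that the larger library was scaled to the smaller. The Fezf2-A list has no such lines, and its −log10 p and q columns, whose names are lost, were taken from the column order of the other list.

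Peaks were paired at 1 bp with Python 3.11.15, numpy 2.4.6, pandas 2.3.3 and scipy 1.17.1, and figures drawn with matplotlib 3.10.9; the pairing was tested on simulated lists. Every overlapping pair was kept. Intervals are exact Clopper-Pearson at 95%. There was no replicate and so no test. Named regions follow a fixed rule: the 5 pairs of highest lower fold enrichment, the 3 most unequal each way, the 2 of largest summit distance, the 3 strongest unpaired peaks of each list, and the 2 chromosomes of highest and of lowest share ratio. Clusters, bins and places of high background were chosen after their values were seen. The comparison and its measures were chosen with earlier results of these data known. Alternatives covered peak limits, list length, overlap rule, chromosomes and high peaks.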

Additional observations from a re-analysis of the deposited data

How the results depend on the processing

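No paired analysis was possible because each construct has 1 library. The share of Fezf2-A peaks with a partner, 61.1% as reported, was 55.4% at −log10 q of at least 5, 54.8% at a fold enrichment of at least 5, 55.6% with lists of equal length, 58.1% with an overlap of at least 50% of the shorter peak, 43.0% with summits at most 100 bp apart and 60.4% without the 1% of peaks of highest pileup. For Fezf2-E, 53.0% as reported, the values in the same order were 51.3%, 51.3%, 56.2%, 50.1%, 36.7% and 52.3%. With lists of equal length (55.6% and 56.2%) the shares must lie close together, since both count the same pairs over equal numbers of peaks. The median log2 ratio of fold enrichment, −0.18 as reported, was −0.16 at −log10 q of at least 5, −0.15 at a fold enrichment of at least 5 and −0.13 with equal lists, and stayed below 0 in all 9 alternatives. The median summit distance, 61 bp as reported, was 54, 57 and 59 bp in those 3 settings, 57 bp with the 50% overlap, 38 bp with summits at most 100 bp apart, where the rule itself limits it, and 58 bp with one-to-one pairs. Keeping autosomes and X alone changed nothing, since the lists hold no other chromosome. Leaving out peaks with background above 10 was added after seeing the data and moved none of these 4 values beyond its counting interval. The sources used here do not state the depth of the Fezf2-A library, which limits any reading of list length, pileup or fold enrichment between constructs.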
